A study of Rattus norvegicus with 6 samples.

Results

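The integrin and laminin genes of rat neonatal cardiomyocyte cultures were examined. They were taken by name from the gene count table, as every gene named for an integrin α or β subunit or a laminin α, β or γ chain, which gave 36 of the 43035 features. The 36 genes comprised 17 integrin α, 8 integrin β, 5 laminin α, 3 laminin β and 3 laminin γ genes. The RNA came from cardiomyocytes of Sprague-Dawley rat hearts, taken at postnatal day 1 by the labels. The study's methods give the age as a range that also includes the following day. The cells were held in primary culture, a preparation that can still contain other cells of the heart. In 3 libraries the cells had received scramble siRNA (si-NC) and in the other 3 libraries siRNA directed at DYRK1A (si-DYRK1A), a protein kinase. The cells of all 6 libraries were collected at 48 h. The labels call the 3 libraries of each group biological replicates and name no litter or culture.

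The annotated Dyrk1a gene held 0 to 3 counts per library. An unannotated transcript over its locus (chr11:34840290-34959417, Rnor_6.0) was at 77.7 ± 3.22 CPM in si-NC and 82.4 ± 2.70 CPM in si-DYRK1A (SD, n = 3 each, edgeR adjusted p = 0.374). This transcript held 777 to 971 counts per library. Its log2 fold change was 0.084, with an interval from -0.035 to 0.204, so that its counts showed no fall in si-DYRK1A. Whether its reads came from Dyrk1a mRNA was not tested. The counts thus gave no sign of a lower Dyrk1a RNA level, and every direction below rests on the labels. The study also examined DYRK1A protein by immunoblot after the same siRNA, which was not analysed here. Libraries held 10325074 to 11921772 counts, of which 0.268% to 0.305% fell on the integrin and laminin genes.

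Integrins are receptors that span the plasma membrane as pairs of an α and a β subunit and tie the actin cytoskeleton to the extracellular matrix. The α subunit largely sets which ligand is bound: α5, α8, αv and αIIb recognise the RGD peptide motif of fibronectin and related proteins, α1, α2, α10 and α11 bind collagens, α3, α6 and α7 bind laminins, and αD, αE, αL and αX are carried by leukocytes. Laminins are trimers of an α, a β and a γ chain that form the scaffold of the basement membrane around cardiomyocytes and vessels. In the heart, the β1 subunit pairs with most matrix-binding α subunits, and α8, which pairs only with β1, is known from mesenchymal and contractile cells and from its ligand nephronectin.

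Of the integrin and laminin genes, 4 were higher in si-DYRK1A (Itga8, Itgb6, Itga1 and Lama1) and 4 were lower (Itga5, Itgax, Itgb4 and Lamc3). Itga8 rose 1.56-fold and Itgb6 rose 1.53-fold, whereas Lamc3 fell to 0.633 and Itgb4 to 0.710 of its si-NC level. The test was edgeR's quasi-likelihood test over all features, with a Benjamini-Hochberg adjusted p under 0.05, and it could be run for 25 of the 36 genes. The other 11 genes had too few counts, and 6 of these had 0 counts in every library. Of all 15513 features tested, 15.2% passed in either direction, 8.03% as higher and 7.19% as lower. With other scalings of the counts the split moved from 4 higher and 4 lower to 3 and 5 (RLE) or 2 and 5 (library size only). Of the 25 tested genes, 9 had CPM values that did not overlap between the groups, against 31.5% of all features tested. The log2 fold change was positive for 8 genes and negative for 17, with a median of -0.14 against 0.002 over all features tested. With 3 libraries against 3, an exact permutation test of a gene's CPM cannot give a p below 0.1, so that the calls come from the model fitted across all features. In these bulk cultures, fewer cells of a type and less RNA per cell cannot be told apart.

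**Figure D1:**
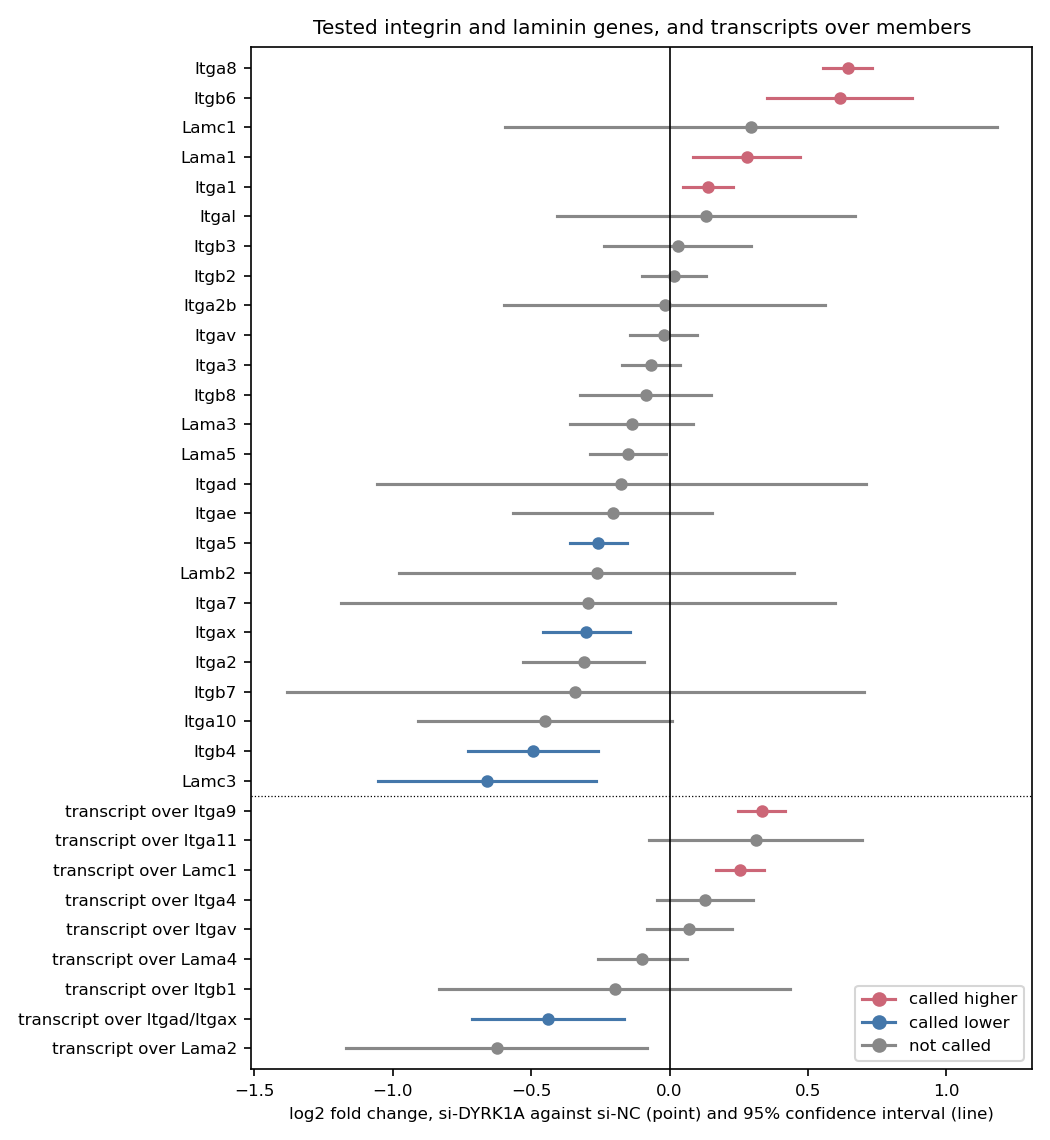
Log2 fold change (x axis, si-DYRK1A against si-NC) with its 95% confidence interval for the 25 tested integrin and laminin genes and, below the dotted line, for unannotated transcripts over genes of the families. Itga8 at 0.64 and Itgb6 at 0.62 stand highest, Lamc3 at -0.66 and Itgb4 at -0.49 stand lowest among the genes, and the transcripts over Itga9 and Lamc1 lie above 0 with narrow intervals.

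Among the integrin α subunits that bind fibronectin and other RGD ligands, Itga8 was higher, Itga5 was lower, and Itgav and Itga2b did not pass the test. Itga8 (ENSRNOG00000016538, chr17:79321900-79676499, minus strand, Rnor_6.0) encodes the α8 subunit. Its level was 244, 248 and 245 CPM in the si-NC libraries and 388, 374 and 389 CPM in the si-DYRK1A libraries. The groups lay far apart, and the si-NC libraries differed from each other by a few CPM only. On the log2 scale Itga8 rose by 0.64 (SE 0.042, 95% interval 0.56 to 0.73, edgeR adjusted p = 1e-09), with means of 246 ± 1.7 and 384 ± 8.45 CPM (SD, n = 3 each). Itga8 passed the test in each of the 18 alternative analyses run, with log2 fold changes from 0.62 to 0.66.

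Itga5 (ENSRNOG00000057451, chr7:144970444-144993652, minus strand) encodes α5, the main fibronectin receptor subunit. Its level was 510.0, 554 and 474 CPM in si-NC and 419, 433 and 435 CPM in si-DYRK1A. All si-DYRK1A libraries were below all si-NC libraries, although si-NC libraries were spread more widely than the others. Itga5 had a log2 fold change of -0.26 (SE 0.050, edgeR adjusted p = 0.00104). The call was kept when any library was left out but not with limma on log2(FPKM + 1), where the adjusted p was 0.0545.

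Itgav, which encodes the αv subunit of vitronectin and latent TGF-β receptors, was at 235, 266 and 228 CPM in si-NC and at 255, 229 and 234 CPM in si-DYRK1A. The groups overlapped, and the log2 fold change of -0.02 had a 95% interval from -0.14 to 0.10 (edgeR adjusted p = 0.868). Itga2b, the platelet αIIb subunit, had 21 to 43 counts per library and a log2 fold change of -0.02, with an interval from -0.60 to 0.56.

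**Figure D2:**
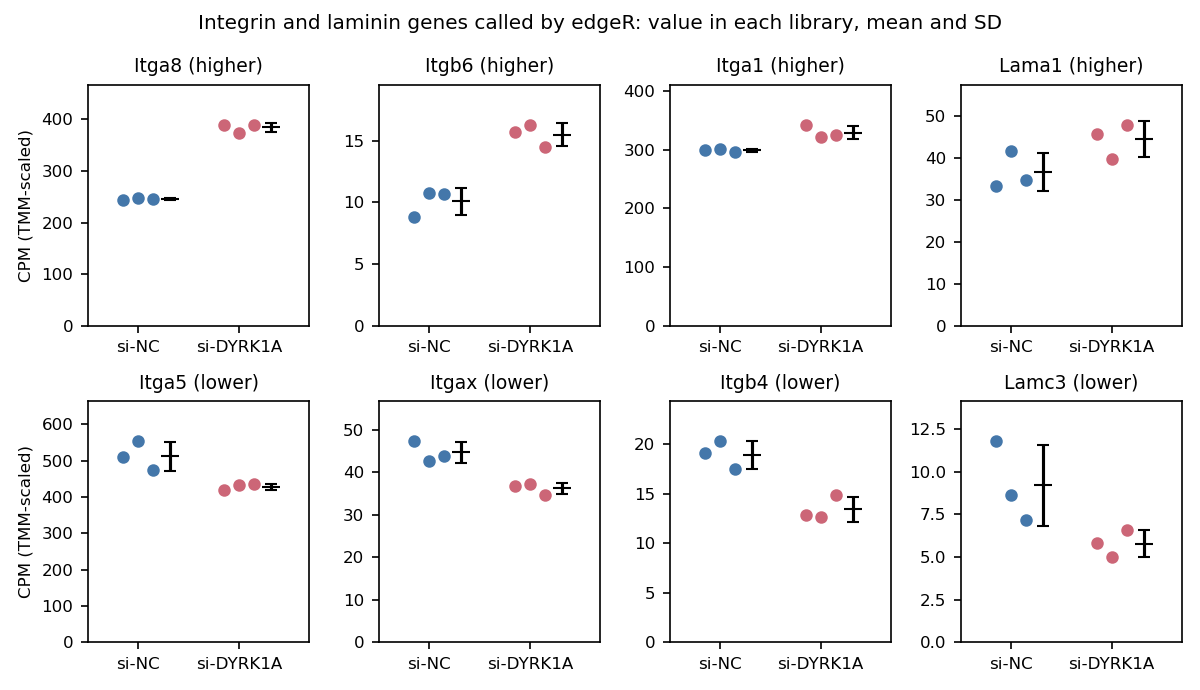
CPM on TMM-scaled library sizes (y axis, from 0) of the 8 genes called by edgeR in the 3 si-NC and 3 si-DYRK1A libraries (points), with mean and SD beside them. The groups are apart for Itga8, Itgb6, Itga1, Itga5, Itgax, Itgb4 and Lamc3, whereas for Lama1 the lowest si-DYRK1A library, at 39.7 CPM, lies below the highest si-NC library, at 41.9 CPM.

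To show the sequence before the start of the genes with the largest rise and of the lower fibronectin receptor subunit, the 250 bases before the annotated start of Itga8, Itgb6 and Itga5 are given from RefSeq on the GRCr8 build, which is newer than the build of the count table. Promoters in this reference table were matched by symbol for 27 of the 36 genes. Capitals mark a match on either strand to any of 6 motifs that were searched: a CArG box (the serum response factor element), TGANTCA (AP-1), GGAATG (TEAD), GGGCGG (the GC box), GCGNGGGCG (EGR, which shares letters with the GC box) and TATAAA (the TATA box). The windows lie on the minus strand at chr17:80410634-80410883 for Itga8, chr3:65530334-65530583 for Itgb6 and chr7:136381306-136381555 for Itga5.
Itga8: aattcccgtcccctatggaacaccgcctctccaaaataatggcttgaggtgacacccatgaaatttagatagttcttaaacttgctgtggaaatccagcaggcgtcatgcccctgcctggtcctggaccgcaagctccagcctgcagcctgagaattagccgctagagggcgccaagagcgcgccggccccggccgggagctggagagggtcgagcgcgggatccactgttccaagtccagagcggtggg
Itgb6: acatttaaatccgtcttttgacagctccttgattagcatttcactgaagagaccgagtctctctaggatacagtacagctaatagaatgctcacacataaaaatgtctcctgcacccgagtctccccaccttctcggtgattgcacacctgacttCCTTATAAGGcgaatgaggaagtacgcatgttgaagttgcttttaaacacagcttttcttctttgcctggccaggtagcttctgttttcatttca
Itga5: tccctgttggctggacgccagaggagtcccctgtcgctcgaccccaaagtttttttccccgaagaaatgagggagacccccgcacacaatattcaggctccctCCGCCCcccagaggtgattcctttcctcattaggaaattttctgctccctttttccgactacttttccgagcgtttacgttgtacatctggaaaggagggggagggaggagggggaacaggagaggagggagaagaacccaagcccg
The Itga8 window held none of the 6 motifs. The Itgb6 window held a CArG box 95 to 86 bases before the start, a motif found in 1.5% of the 33469 promoters in the table and in 2 of the 27 matched genes, the other being Lama2. The Itga5 window held a GC box 147 to 142 bases before the start, which 30.5% of all promoters and 13 of the 27 matched genes had. The TGANTCA motif was found in the windows of Itgax and Lama3 alone among the 27, against 6.34% of all promoters. The TEAD motif was found in 5 of the 27 and in 12.1% of all promoters, the EGR motif in 3 and in 4.29%, and the TATA box in 2 and in 12.9%. These are matches of letters, and binding was not measured.

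Among the collagen-binding subunits, Itga1 was slightly higher, and Itga2 and Itga10 had lower values that did not pass the test. Itga1 (ENSRNOG00000053550, chr2:47127219-47281421), which encodes α1, was at 299.9, 301 and 296 CPM in si-NC and at 343, 321 and 324 CPM in si-DYRK1A. The groups did not overlap. Itga1 had a log2 fold change of 0.14 (SE 0.043, edgeR adjusted p = 0.0306), and the call was lost when si-NC replicate 1 (adjusted p = 0.0913), si-NC replicate 3 (0.0761), or si-DYRK1A replicate 1 (0.148), 2 (0.0569) or 3 (0.0693) was left out of the edgeR fit. Itga2, the adjacent gene on the same strand of chromosome 2, had CPM of 20.3, 23.7 and 20.2 in si-NC and of 16.0, 18.7 and 17.1 in si-DYRK1A. Those groups did not overlap either, and the log2 fold change of -0.31 (SE 0.106) had an edgeR adjusted p of 0.0509, which came under the threshold without si-NC replicate 3 (0.047) and under 5 other settings (0.034 to 0.0479). Itga10 had 33 to 55 counts per library and a log2 fold change of -0.45 (edgeR adjusted p = 0.194, interval -0.91 to 0.01).

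Of the laminin-binding subunits, neither of the 2 that could be tested passed. Itga3, which encodes α3, was at 280.2, 301 and 271 CPM in si-NC and at 256, 268 and 290 CPM in si-DYRK1A. The values overlapped, and the log2 fold change was -0.07 (95% interval -0.17 to 0.04, edgeR adjusted p = 0.434). Itga7, the subunit typical of mature muscle, held 8 to 14 counts per library with an interval from -1.19 to 0.60, so that a change of either sign was not detectable at this depth. Itga6 held 0 to 5 counts per library and was not tested.

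Of the 4 leukocyte α subunits, Itgax was lower and Itgad, Itgae and Itgal did not pass. Itgax, which encodes αX (CD11c), was at 47.3, 42.7 and 43.9 CPM in si-NC and at 36.8, 37.2 and 34.7 CPM in si-DYRK1A. The groups did not overlap, and the log2 fold change was -0.30 (SE 0.076, edgeR adjusted p = 0.00833). The call was lost without si-NC replicate 1 (adjusted p = 0.0542) or si-DYRK1A replicate 3 (0.0525). Itgax lies within Itgad on the same strand of chromosome 1, and an unannotated transcript spans both, so that reads of both genes may not have been kept apart. Itgb2, which encodes the β2 partner of αD, αL and αX, did not pass: its level was 98.0 ± 6.03 CPM in si-NC and 99.0 ± 3.98 CPM in si-DYRK1A (log2 fold change 0.02, interval -0.10 to 0.13, edgeR adjusted p = 0.897). Of 11 leukocyte markers, 9 were tested, Lyz2 was higher and 0 were lower by edgeR (3 at an unadjusted p under 0.05, 0 or 1 in the alternatives). Among all features tested, 8.03% were called higher and 7.19% lower. Cd68 was at 0 counts, and the summed level of the 11 was 289.9 to 307 CPM in si-NC and 290.4 to 333 CPM in si-DYRK1A. Without Lyz2 the other 10 summed to 196 to 218 and 185 to 211 CPM. Of the 9 tested, 5 (Ptprc, Csf1r, Adgre1, Aif1 and Mrc1) had a negative log2 fold change, as Itgax had, and 4, Lyz2 among them, had a positive one. The part of leukocyte number in the value of Itgax was not tested.

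Among the 8 β subunits, Itgb6 was higher, Itgb4 was lower, Itgb2, Itgb3, Itgb7 and Itgb8 did not pass, and Itgb1 and Itgb5 were listed with 0 counts in every library. Itgb6 (ENSRNOG00000008346, chr3:46652623-46726958) encodes β6, a partner of αv that is typical of epithelia. Its level was 8.82, 10.7 and 10.7 CPM in si-NC and 15.7, 16.3 and 14.5 CPM in si-DYRK1A. The groups did not overlap, at 92 to 179 counts per library. Itgb6 had a log2 fold change of 0.62 (SE 0.126, edgeR adjusted p = 0.00164) and the call was kept when any library was left out. Itgb4 (ENSRNOG00000005580, chr10:104523996-104561078) encodes β4, the laminin receptor subunit of hemidesmosomes. It was at 19.1, 20.3 and 17.5 CPM in si-NC and at 12.8, 12.6 and 14.9 CPM in si-DYRK1A, again without overlap. Itgb4 had a log2 fold change of -0.49 (SE 0.113, edgeR adjusted p = 0.00401), which was kept when any library was left out and lost with limma on log2(FPKM + 1) (0.0782). Of the αv partners, Itgb3 had a log2 fold change of 0.03 (interval -0.24 to 0.30) and Itgb8 one of -0.09 (interval -0.32 to 0.15).

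Of 6 markers of mesothelial and epicardial cells, which line the heart, Tbx18 was at 0 counts and the other 5 (Wt1, Upk3b, Msln, Krt19 and Lrrn4) were all lower in si-DYRK1A, and their summed level went from 124 to 132 CPM in si-NC to 91.0 to 96.0 CPM in si-DYRK1A. Across the alternative analyses, between 1 and 5 of them passed. Of all features tested, 7.19% were called lower in the reported fit. These markers moved in the direction of Itgb4 and Lamc3 and against that of Itgb6, and their part in the results was not tested.

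Among the laminin chains, Lama1 was higher and Lamc3 was lower. Lama1, which encodes the α1 chain typical of early basement membranes, was at 33.5, 41.9 and 34.8 CPM in si-NC and at 45.8, 39.7 and 48.0 CPM in si-DYRK1A. The groups overlapped. The log2 fold change was 0.28 (SE 0.092, edgeR adjusted p = 0.0461), and the call was lost without si-NC replicate 1 (adjusted p = 0.199) or 3 (0.17), without si-DYRK1A replicate 1 (0.155) or 3 (0.209), and with DESeq2 (0.106). Lamc3, which encodes the γ3 chain, was at 11.8, 8.63 and 7.19 CPM in si-NC and at 5.81, 4.99 and 6.58 CPM in si-DYRK1A. The groups did not overlap, but si-NC replicate 1 stood above the other si-NC libraries. The log2 fold change was -0.66 (SE 0.189, edgeR adjusted p = 0.0201). It was -0.45 without si-NC replicate 1 (adjusted p = 0.157), and the call was also lost without si-DYRK1A replicate 1 (0.0649) or 2 (0.109) and with DESeq2 (0.0529).

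Lama5, which encodes the α5 chain of the common vascular and epithelial laminins, was at 934, 1039 and 851 CPM in si-NC and at 821, 844 and 879.9 CPM in si-DYRK1A. The values overlapped between the groups, and the log2 fold change of -0.15 (SE 0.063, edgeR adjusted p = 0.148) did not pass. It passed without si-NC replicate 3, at a log2 fold change of -0.23 and an adjusted p of 0.00369, and with no filter on low counts, at -0.16 and 0.00337. Lama3 had a log2 fold change of -0.14 (interval -0.36 to 0.09). Lamb2, the only β chain with counts, held 15 to 35 counts per library and a log2 fold change of -0.26, with an interval from -0.98 to 0.45.

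To set genes beside each other, their deposited FPKM values, which are counts per gene length, were used. Among the annotated genes, leaving out the unannotated transcripts described below, the order in si-NC was Itga5 at 115.9 ± 9.18 FPKM, Lama5 at 82.7 ± 8.42, Itgav at 73.9 ± 6.32, Itga1 at 71.2 ± 0.715, Itga3 at 57.6 ± 3.19, Itga8 at 41.7 ± 0.416 and Itgb2 at 30.9 ± 1.84 FPKM (SD, n = 3). Lama5 overlapped with Itgav and Itgav with Itga1, while the other neighbours in this order did not overlap. In si-DYRK1A, Itga5 was at 96.7 ± 1.93 FPKM, Itga1 at 78.2 ± 2.72, Lama5 at 74.2 ± 2.59, Itgav at 72.6 ± 4.06, Itga8 at 64.9 ± 1.37, Itga3 at 54.8 ± 3.39 and Itgb2 at 31.1 ± 1.25 FPKM. Here Itga1 overlapped with Lama5 and Lama5 with Itgav, and the other neighbours were apart. Itga8 therefore lay below Itga3 in every si-NC library and above it in every si-DYRK1A library. The transcript over Lamc1, at 74.1 ± 3.15 FPKM in si-NC and 88.1 ± 1.81 FPKM in si-DYRK1A, would stand beside Itgav in si-NC and between Itga5 and Itga1 in si-DYRK1A.

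**Figure D3:**
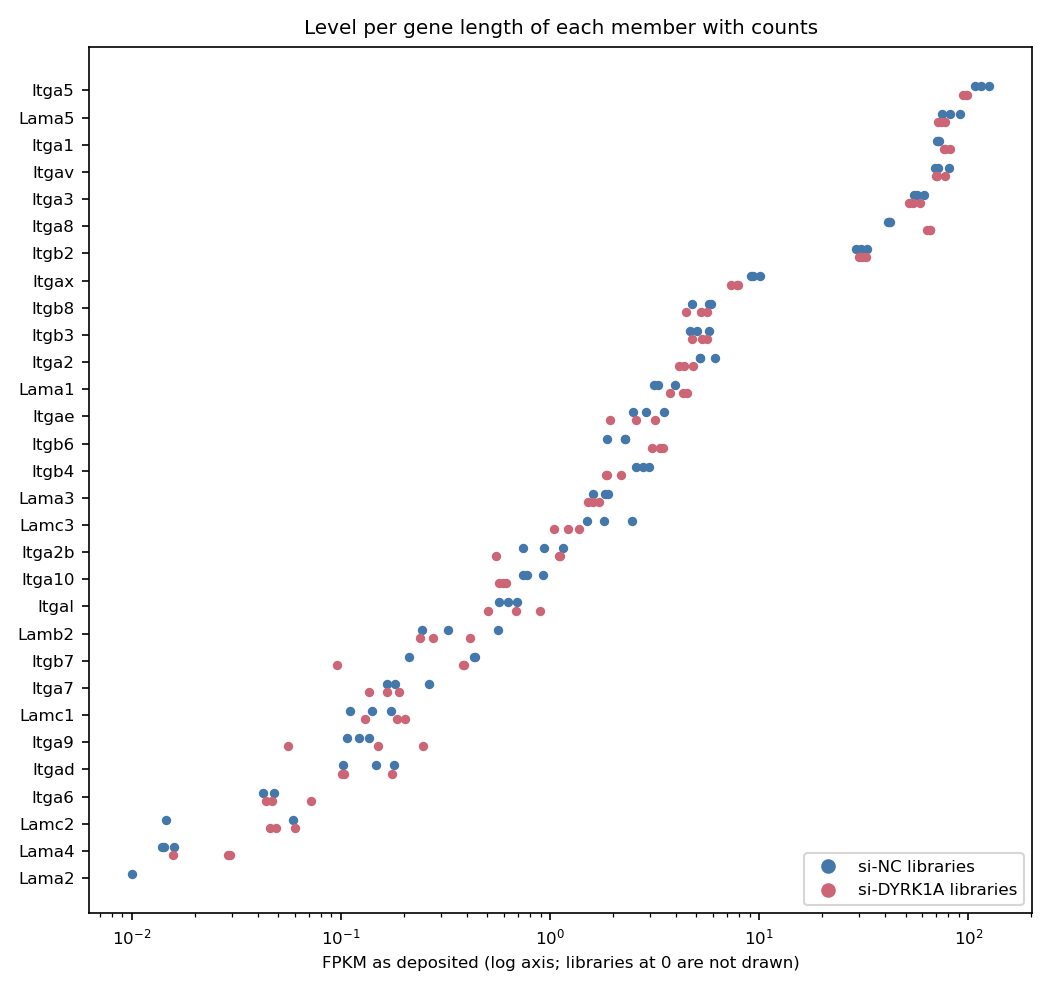
Deposited FPKM (x axis, log scale) of each integrin and laminin gene with counts, in the si-NC and si-DYRK1A libraries (points, 3 per group), ordered by mean level; libraries at 0 are not drawn. Itga5 leads in both groups, and Itga8 moves from 41.7 to 64.9 FPKM, past Itga3.

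The summed FPKM of the integrin α genes was 381 ± 19.4 in si-NC and 384 ± 4.01 in si-DYRK1A, while its division among the subunits differed. Itga5 held 30.5%, 31.2% and 29.4% of the sum in si-NC and 24.4%, 25.7% and 25.3% in si-DYRK1A. Itga8 held 11.0%, 10.5% and 11.4% in si-NC and 17.0%, 16.7% and 17.0% in si-DYRK1A. The share of Itga1 was 18.7 ± 0.756% and 20.3 ± 0.626%, that of Itgav 19.4 ± 0.683% and 18.9 ± 0.963%, and that of Itga3 15.1 ± 0.0835% and 14.2 ± 0.846%. The ratio of Itga8 to Itga5 FPKM was 0.361 ± 0.0262 in si-NC and 0.672 ± 0.0233 in si-DYRK1A. The shares are descriptions and were not tested. Adding the unannotated transcripts described below, apart from those over Itga4 and over Itgad and Itgax, lowered the shares of Itga8 to 9.80% and 14.8%. The order of the groups stayed the same. Among the laminin α chains, Lama5 held 94.0 ± 0.451% of the FPKM in si-NC and 92.7 ± 0.379% in si-DYRK1A. With the unannotated transcripts added, apart from that over Lama2, it held 87.3% and 86.0%, and Lama4 held 7.21% and 7.32%.

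**Figure D4:**
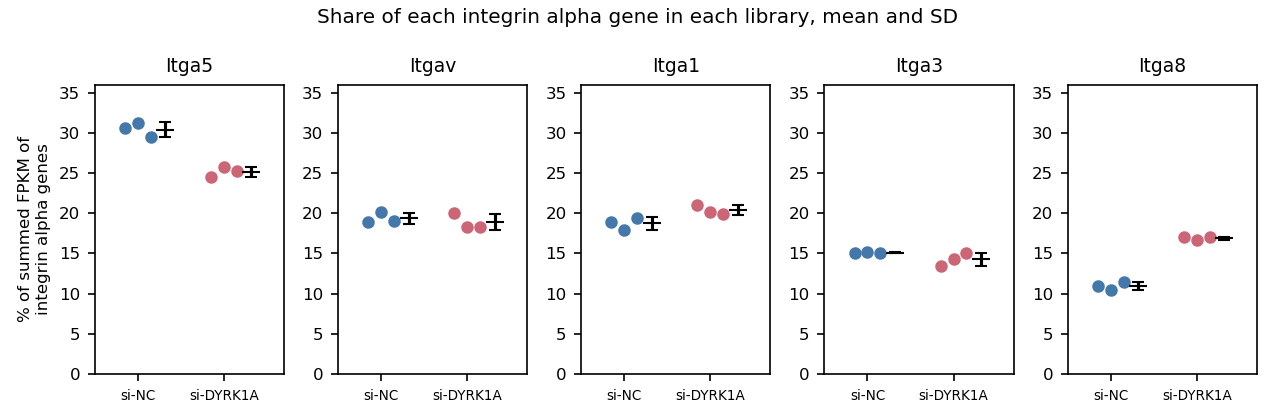
Share of 5 integrin α genes in the summed FPKM of all integrin α genes of a library (y axis, percent, from 0), per library (points) with mean and SD. Itga5 goes from 30.4% to 25.1% and Itga8 from 11.0% to 16.9%, while the points of Itgav overlap between the groups.

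Several genes that heart cells are known to use, among them Itgb1 and Lamb1, were listed with 0 or a few counts. Of the 36 genes, 18 lay under an unannotated transcript of their strand that covered at least 50% of the gene, and 11 of these 18 had fewer than 10 counts in every library and could not be tested, against 0 of the 18 uncovered genes. A count of 0 allows up to 0.251 to 0.288 CPM per library for the annotated gene, and it says nothing of reads counted on the transcript over it.

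The transcript over Itga9 (chr8:127270162-127576712), whose listed domains are integrin FG-GAP repeats and an integrin α domain, held 99.9% of the counts of both features. It was at 318, 321 and 319.5 CPM in si-NC and at 408, 391 and 407 CPM in si-DYRK1A, with no overlap. The log2 fold change was 0.33 (SE 0.042, edgeR adjusted p = 7.78e-06). The α9 subunit pairs with β1 and binds tenascin-C and osteopontin. The transcript over Lamc1 (chr13:70655453-70783515, laminin domains) likewise held 99.9% of the counts of both features, and Lamc1 encodes the γ1 chain found in most laminins. It was at 675, 728 and 691 CPM in si-NC and at 844, 812 and 843 CPM in si-DYRK1A. The groups did not overlap, and the log2 fold change was 0.26 (SE 0.042, edgeR adjusted p = 0.000188). Both calls were kept in every alternative in which the transcript was tested.

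The transcript that spans Itgad and Itgax was lower, at 14.1 ± 1.27 CPM in si-NC and 10.4 ± 1.25 CPM in si-DYRK1A (log2 fold change -0.44, SE 0.132, edgeR adjusted p = 0.0261). This call was lost without si-NC replicate 1 (adjusted p = 0.0951) or 3 (0.0774), without si-DYRK1A replicate 1 (0.0937) or 2 (0.13), and with DESeq2 (0.0898). The transcripts over Itga4 (26.9 ± 0.346 and 29.5 ± 1.11 CPM, edgeR adjusted p = 0.346), Lama4 (41.6 ± 0.429 and 38.9 ± 2.96 CPM, 0.45), Itgav (0.589), Itga11 (0.30), Lama2 (0.12) and Itgb1 (0.734) did not pass. The transcript over Itgb1 held 24 to 57 counts per library, although β1 is the partner of most subunits described here, and those over Itgb5, Lamb1 and Lamb3 held 0 counts. When each gene was summed with its covering transcript, leaving out transcripts that overlap a further annotated gene, 6 genes were higher and 4 were lower.

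**Figure D5:**
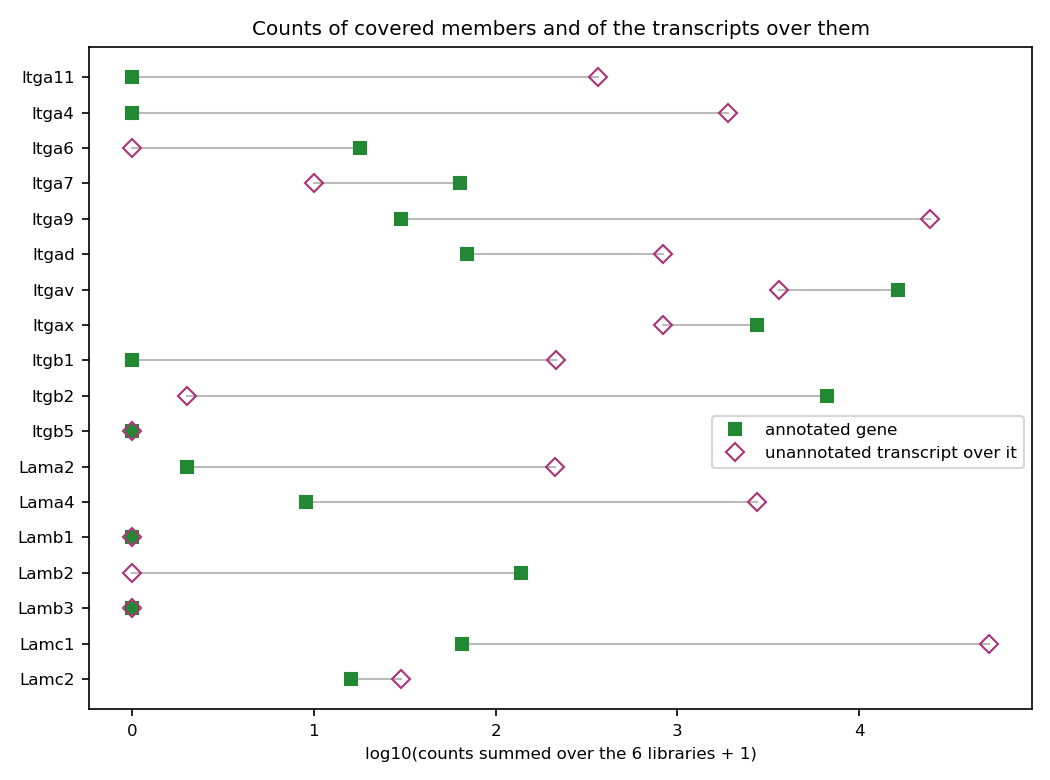
Counts summed over the 6 libraries, as log10(counts + 1) on the x axis, of the 18 covered integrin and laminin genes (squares) and of the unannotated transcript over each (diamonds). For Itga4, Itga9, Itga11, Itgb1, Lama2, Lama4 and Lamc1 the counts lie on the transcript, while for Itgb5, Lamb1 and Lamb3 both are at 0.

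Ligands and partners of these receptors were described from lists of genes. Of 29 ligands of RGD, α4 and α9 integrins, 20 were tested, of which 9 were higher and 3 were lower (6 to 9 and 0 to 5 in the alternatives), beside 8.03% and 7.19% of all features. Of the tested ligands, 9 had a positive and 11 a negative log2 fold change, with a median of -0.05 against 0.002 over all features tested. The 4 with the smallest p were higher. Tnc (tenascin-C) was at 48.2 ± 2.16 CPM in si-NC and 76.3 ± 4.57 CPM in si-DYRK1A (log2 fold change 0.66, edgeR adjusted p = 4.79e-07), Spp1 (osteopontin) at 2166 ± 58.5 and 2818 ± 66.2 CPM (0.38, 5.58e-07), Thbs2 (thrombospondin-2) at 384 ± 7.84 and 505 ± 8.46 CPM (0.40, 6.39e-07), and Tnn (tenascin-N) at 17.5 ± 0.876 and 30.5 ± 1.13 CPM (0.80, 2.3e-06). Npnt, which encodes nephronectin, the ligand of α8β1, was at 18.1, 21.9 and 23.6 CPM in si-NC and at 27.6, 27.9 and 27.5 CPM in si-DYRK1A. Its groups did not overlap, and the log2 fold change was 0.38 (SE 0.099, edgeR adjusted p = 0.0108). This call of Npnt was lost without si-NC replicate 1 (adjusted p = 0.08) and with limma on log2(FPKM + 1) (0.0741). Fn1 (fibronectin) had a log2 fold change of -0.07 (SE 0.041, edgeR adjusted p = 0.287). Over ligand genes that could not be tested, 3 unannotated transcripts could, and 2 of these were higher: those over Thbs1 (thrombospondin-1, log2 fold change 0.27, edgeR adjusted p = 4.56e-05) and Tgfb3 (0.42, 1.36e-05), genes that were themselves at 0 counts.

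Of 32 integrin adaptor and signalling genes, 21 were tested, 3 were higher and 3 were lower (1 to 4 in either direction in the alternatives, with 8.03% and 7.19% of all features), and the median log2 fold change was -0.02. Of 9 tested transcripts over untested genes of this list, that over Zyx (zyxin) was higher (0.20, edgeR adjusted p = 0.0407). Actn1 (α-actinin-1, which links integrin β tails to actin) was higher by 0.51 on the log2 scale (edgeR adjusted p = 2.15e-08) and Vcl (vinculin) by 0.26 (0.000313). Pxn (paxillin, a scaffold of focal adhesions) fell by 0.53 on the log2 scale (edgeR adjusted p = 3.52e-08), from 271.7 ± 7.70 to 187.9 ± 4.41 CPM. Bcar1 (p130Cas) was higher by 1.60 at 5 to 28 counts per library (edgeR adjusted p = 0.00587), and the transcript over it, at 16 to 40 counts, did not pass (0.104). Tln1 (talin-1) and Ilk (integrin-linked kinase) had log2 fold changes of -0.02 and 0.09 (edgeR adjusted p = 0.881 and 0.159).

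Of 22 basement membrane partners and other laminin receptors, 21 were found and 10 were tested, with 1 higher, 3 lower (0 or 1 and 1 to 4 in the alternatives, with 8.03% and 7.19% of all features) and a median log2 fold change of -0.01. Over genes of this list that could not be tested, 6 unannotated transcripts could, and 2 of these were higher: those over Ntn4 (netrin-4, which binds laminin γ chains, log2 fold change 0.72, edgeR adjusted p = 0.00386) and Sgca (0.49, 0.000802). Sgcd (δ-sarcoglycan, part of the dystrophin complex) had a log2 fold change of -0.32 (edgeR adjusted p = 0.0371), Nid2 (nidogen-2, which binds laminin γ chains) of -0.13 (0.0443) and Pomt2 (an enzyme that adds mannose to dystroglycan) of 0.18 (0.0359). The call of Sgcd was lost when si-NC replicate 1 or 2 or si-DYRK1A replicate 2 or 3 was left out (adjusted p up to 0.16), that of Nid2 on leaving out any library but si-NC replicate 3 (up to 0.241), and that of Pomt2 on leaving out any but si-NC replicate 2 (up to 0.144). Nid1 had a log2 fold change of -0.09 (edgeR adjusted p = 0.124), and Dag1 (dystroglycan) was at 0 counts under a transcript at 25 to 44 counts. Of 15 tetraspanins and other lateral partners of integrins, 9 were tested, with a median log2 fold change of 0.03. By edgeR 0 were higher (0 at an unadjusted p under 0.05 and in the alternatives) and 2 were lower (0 to 3 in the alternatives), with 8.03% and 7.19% of all features. The 2 lower genes were Cd81 (log2 fold change -0.19, edgeR adjusted p = 0.0045) and Slc3a2 (-0.17, 0.00814). The call of Cd81 was lost with limma on log2(FPKM + 1) (adjusted p = 0.0728), and that of Slc3a2 in this limma fit with no filter (0.0859). Cd151, a partner of α3 and α6, was at 0 counts. Over the lists of partners, 48 genes were covered by an unannotated transcript and 35 of these were not tested, against 2 of the 49 uncovered genes.

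Markers of the cells that such cultures can hold were summed for the groups. Their calls stand beside 8.03% of all features tested called higher and 7.19% called lower. Of the cardiomyocyte markers, Actc1, Actn2, Pln and Nppa were abundant and higher in si-DYRK1A, whereas Tnni3, Myh6, Myh7 and Myl2 were at 0 counts under unannotated transcripts. The 10 cardiomyocyte markers found summed to 18960 to 19670 CPM in si-NC and 22220 to 23170 CPM in si-DYRK1A, with 4 of 5 tested higher. The 8 fibroblast markers found summed to 21530 to 26240 and 20370 to 21110 CPM, with Lum and Postn higher (log2 fold changes 0.59 and 1.10, edgeR adjusted p = 1.21e-08 and 2.39e-05) among 6 tested, 0 lower by edgeR (1 at an unadjusted p under 0.05, 0 or 1 in the alternatives) and Pdgfra at 0. Without Col1a1, which had a log2 fold change of -0.37 (edgeR adjusted p = 0.0869), the other 7 summed to 8904 to 9834 and 9469 to 9821 CPM. The 10 smooth muscle and pericyte markers summed to 689 to 722 and 710.0 to 729 CPM, with Acta2, Myh11, Lmod1 and Notch3 at 0 and 0 of 3 tested called by edgeR (1 at an unadjusted p under 0.05, 0 or 1 in the alternatives). The 8 endothelial markers found summed to 190.4 to 208 and 161 to 169.9 CPM, with Cdh5, Tek and Tie1 lower among 8 tested and a negative log2 fold change for 5 of the 8. The 6 Schwann cell markers summed to 52.3 to 56.9 and 52.5 to 55.4 CPM, with 1 of 6 lower. The 4 called cardiomyocyte markers and the fibroblast markers Lum and Postn moved in the direction of Itga8 and Itga1. The cardiomyocyte marker Tnnt2 (log2 fold change -0.14, edgeR adjusted p = 0.595) and the fibroblast marker Col1a1 had negative values that did not pass. The 3 called endothelial markers moved in the direction of Itga5, while 3 of the 8 tested had a positive log2 fold change. The part of any of these markers in the results was not tested.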

How the data were processed

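RNA-seq of rat neonatal cardiomyocytes in culture, as 6 libraries (3 si-NC, 3 si-DYRK1A), was used, grouped and numbered by the sample labels. The study's methods give mapping of paired reads with HISAT2 to Rnor_6.0, whereas the submitters' processing notes list Bowtie 0.12.2 and mm8 with no role. Positions in the table are those of a rat assembly. For the counter, annotation release and strand setting, no source used here gives a name. The methods also name another library kit than the labels. The authors deposited raw counts per feature, unannotated transcripts included, and FPKM values, which are counts per gene length scaled per library. Each of the 6 columns of either table was matched to its sample, and features without a gene name were kept.

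From the deposited counts, differences were tested with edgeR 4.0.16 (quasi-likelihood, R 4.3.3, robust fit, TMM, filterByExpr with a minimum count of 10 and a total of 15), with Benjamini-Hochberg adjustment over all features tested and a threshold of 0.05. The common coefficient of variation between replicates was 8.82%. CPM used TMM-scaled library sizes, and all intervals are 95% intervals of the fit. The depth, 10325074 to 11921772 counts, sets a floor of 3 counts for a count of 0, and intervals for such counts cover counting error only. The alternatives were DESeq2 1.42.0, limma 3.58.1 (voom, and log2 FPKM with pseudocounts of 1 and 0.1 and a filter of FPKM above 0.5 in 3 libraries), other scalings and filters, a replicate block, each library left out, and the summing of covering transcripts. Scripts were tested on simulated data.

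The genes called and the 5 with the highest mean FPKM are given per library. Of each list of partners, the 4 called genes with the smallest p are named, and Npnt, Fn1, Tln1, Ilk, Cd151, Dag1, Nid1 and Nid2 in any case; 1 called partner gene is not reported here. The genes, lists, markers and motifs were chosen with earlier results of these data known. Promoters came from a RefSeq table of GRCr8, of which no coordinates were mixed with those of the count table. Protein sequences were not used here.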

Additional observations from a re-analysis of the deposited data

How the results depend on the processing

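The number of genes called higher, 4 in the reported fit, was 2 with library size only and 2 with limma on log2(FPKM + 1) or log2(FPKM + 0.1), 1 with log2(FPKM + 1) and no filter, and 2 to 4 when a library was left out. The number called lower, also 4, was 1, 1 and 0 (5 at an unadjusted p under 0.05) in those limma fits and 2 to 6 when a library was left out. Same-numbered libraries did not deviate together (correlations 0.0578, -0.0261 and -0.00409, against -0.0553 to 0.0595 for differently numbered ones). The counts thus gave no sign of pairing, which 3 libraries per group cannot exclude. With the replicate block 2 genes were called higher (Itga1 and Lama1 dropped out) and 4 lower. The causes were not tested. Itga8 passed throughout, whereas 11 of 18 alternatives lost Itga1 and 11 lost Lama1. For some genes that did not pass, the log2 fold change took either sign when a library was left out: from -0.181 to 0.247 for Itga2b, -0.483 to 0.0116 for Itgad, -0.0837 to 0.318 for Itgal, -0.0722 to 0.0473 for Itgav, -0.0327 to 0.0611 for Itgb2, -0.0436 to 0.109 for Itgb3, -0.625 to 0.0824 for Itgb7, -0.184 to 0.00102 for Itgb8, -0.53 to 0.132 for Lamb2, -0.0963 to 0.0639 for Tln1 and -0.509 to 0.149 for the transcript over Itgb1. Itgb2 was -0.0105 with library size only. No scaling moved the median of all features by more than 0.024 on the log2 scale. Over all features, 2360 were called by edgeR, 1571 by DESeq2 and 1199, 1180 and 591 in the limma fits of FPKM. Low counts limit Itga2b, Itga7, Itgad, Itgal, Itgb7, Lamb2 and Lamc1, whose intervals span over 1 log2 unit. For Lamc1 and Itgad, 99.88% and 92.31% of the counts of gene and covering transcript lay on the transcript, so that depth alone does not set their limit.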

Other observations

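Among the ligands, further genes that passed edgeR's test were named after their values were seen. Egfl6, which encodes another RGD protein that binds α8β1, was at 12.3 ± 1.37 CPM in si-NC and 17.0 ± 0.465 CPM in si-DYRK1A (log2 fold change 0.46, SE 0.117, adjusted p = 0.00856). Svep1, a large matrix protein that binds α9β1, was at 278.5 ± 4.15 and 311 ± 8.13 CPM (0.16, SE 0.043, adjusted p = 0.0129). Of the matricellular CCN genes, Ccn2 and Ccn3 were higher (log2 fold changes 0.29 and 0.28, adjusted p = 2.02e-05 and 0.000142), whereas Ccn1 was lower (-0.25, 0.000579). Tgfb1, whose latent form is bound by αvβ6 and αvβ8, was at 214 ± 14.9 and 186 ± 10.30 CPM (-0.21, SE 0.055, adjusted p = 0.0131), and Thbs3 was also lower (-0.35, 0.0012). The groups of these genes did not overlap, as for 31.5% of all features tested.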
